A study of Mus musculus with 9 samples.

Results

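Genes of the bone morphogenetic protein (BMP) pathway were examined in cultured mouse bone marrow stromal cells: the ligand genes Bmp2, Bmp4 and Bmp6, the receptor genes Bmpr1a and Bmpr2, the extracellular inhibitor gene Grem1, the intracellular feedback genes Smad6 and Smad7, and the target genes Id1 and Id3. They were taken by name from a table of read counts for 24186 genes, where each of the 10 names belonged to 1 identifier. RNA came from 3 groups of 3 libraries, numbered 4, 5 and 6 in the labels. The first group held progenitors with adipogenic potential that had received interferon-γ (IFNγ) at 10 ng/ml over 3 days, the next held progenitors with osteogenic potential without IFNγ, and the last held untreated adipogenic progenitors. All were derived from adult C57Bl/6 mice carrying the irtTA-GBD*-TAg transgene, through which dexamethasone and doxycycline switch on large T antigen, and all had been kept without these inducers for 3 days. They are therefore conditionally immortalised cultures from which clones were drawn. Which clone, animal or culture a library came from is not given, so p values measure the spread between these libraries, which may be technical.

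BMPs are secreted ligands that bring type I receptors, such as the product of Bmpr1a, together with type II receptors, such as that of Bmpr2. The type I receptor then phosphorylates SMAD1, SMAD5 and SMAD9, which enter the nucleus with SMAD4 and switch on Id genes together with Smad6 and Smad7, whose products damp the signal. In the marrow stroma the pathway is known for promoting bone formation, and it also takes part in the commitment of stromal cells to fat.

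The libraries held 27440089 to 39251602 counts, and 3 counts, the most that a library with no read of a gene allows (counting error only), were worth 0.0749 to 0.113 CPM (counts scaled to library size, with TMM factors). Of 6 bone markers, Sp7, an osteoblast transcription factor, stood at 50.6 to 130 CPM in osteogenic libraries and at most 0.313 CPM in the untreated adipogenic ones, and Runx2, Alpl, Col1a1 and Ibsp also passed the test there (adjusted p = 0.0147 to 0.0349), while Bglap did not (0.2). Of 6 fat markers, Lpl was lower in osteogenic than in untreated adipogenic libraries (adjusted p = 0.0435), Pparg, Fabp4, Cebpa and Cebpb did not pass, and Adipoq was at or near 0 everywhere, so the adipogenic libraries lack this marker of mature fat cells. Irf1, a transcription factor that IFNγ induces, stood at 634, 883 and 855 CPM in treated libraries against 45.7, 50.6 and 64.5 CPM in untreated ones. Among endothelial markers Pecam1, Cdh5 and Emcn were at or near 0 in all 9 libraries, and the summed level of the 5 markers, nearly all of it Kdr, ran from 22.2 to 54.4 CPM in treated, 1.67 to 2.63 CPM in osteogenic and 9.19 to 17.8 CPM in untreated libraries. The 5 blood cell markers summed to 7.13 to 13.5 CPM in treated, 5.32 to 7.37 CPM in osteogenic and 7.24 to 21.7 CPM in untreated libraries, most of it Cd68, with Ptprc at or near 0. The part of either list in the results below was not tested.

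Differences are log2 fold changes ± SE. Adjusted p refers to the quasi-likelihood test of edgeR, adjusted by Benjamini and Hochberg's method over 15098 genes and called under 0.05, unless another test is named. All 10 genes passed the filter on low counts. In such bulk RNA, fewer cells with a transcript and less of it per cell cannot be told apart. With IFNγ, 0 of the 10 genes passed in adipogenic progenitors, where 2.26% of all genes tested did, 2.01% higher and 0.245% lower. An unadjusted p under 0.05 was reached by 0 of them, beside 14.3% of all genes tested, and DESeq2 called 0, beside 6.75% of the genes it gave an adjusted p. In a set of 10 genes, counts of 0 are close to these shares. The interval of the log2 difference was within −0.63 and 0.28 for both receptor genes, but reached from −3.86 to 2.97 for Bmp2, so a change of several fold in that ligand gene could not be detected. With the libraries paired by their number, 1631 genes (10.8%) passed over the whole table in place of 341, and still 0 of the 10. In osteogenic against untreated adipogenic progenitors 1 of the 10 passed, Smad6, which was higher. There 5.17% of all genes passed, 1.98% higher and 3.19% lower. In treated adipogenic against osteogenic progenitors 4 of the 10 passed, with Grem1 higher and Bmp4, Bmpr2 and Smad6 lower. There 16.7% of all genes passed, 9.2% higher and 7.52% lower. Those groups differ in both lineage and IFNγ, and this comparison cannot tell lineage from treatment. The median log2 difference over the 10 genes was −0.29, 0.22 and −0.58 in these comparisons, in the order given, beside −0.02, −0.02 and 0.03 over all genes tested. The comparisons share libraries pairwise, so their counts are not independent of each other.

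**Figure D1:**
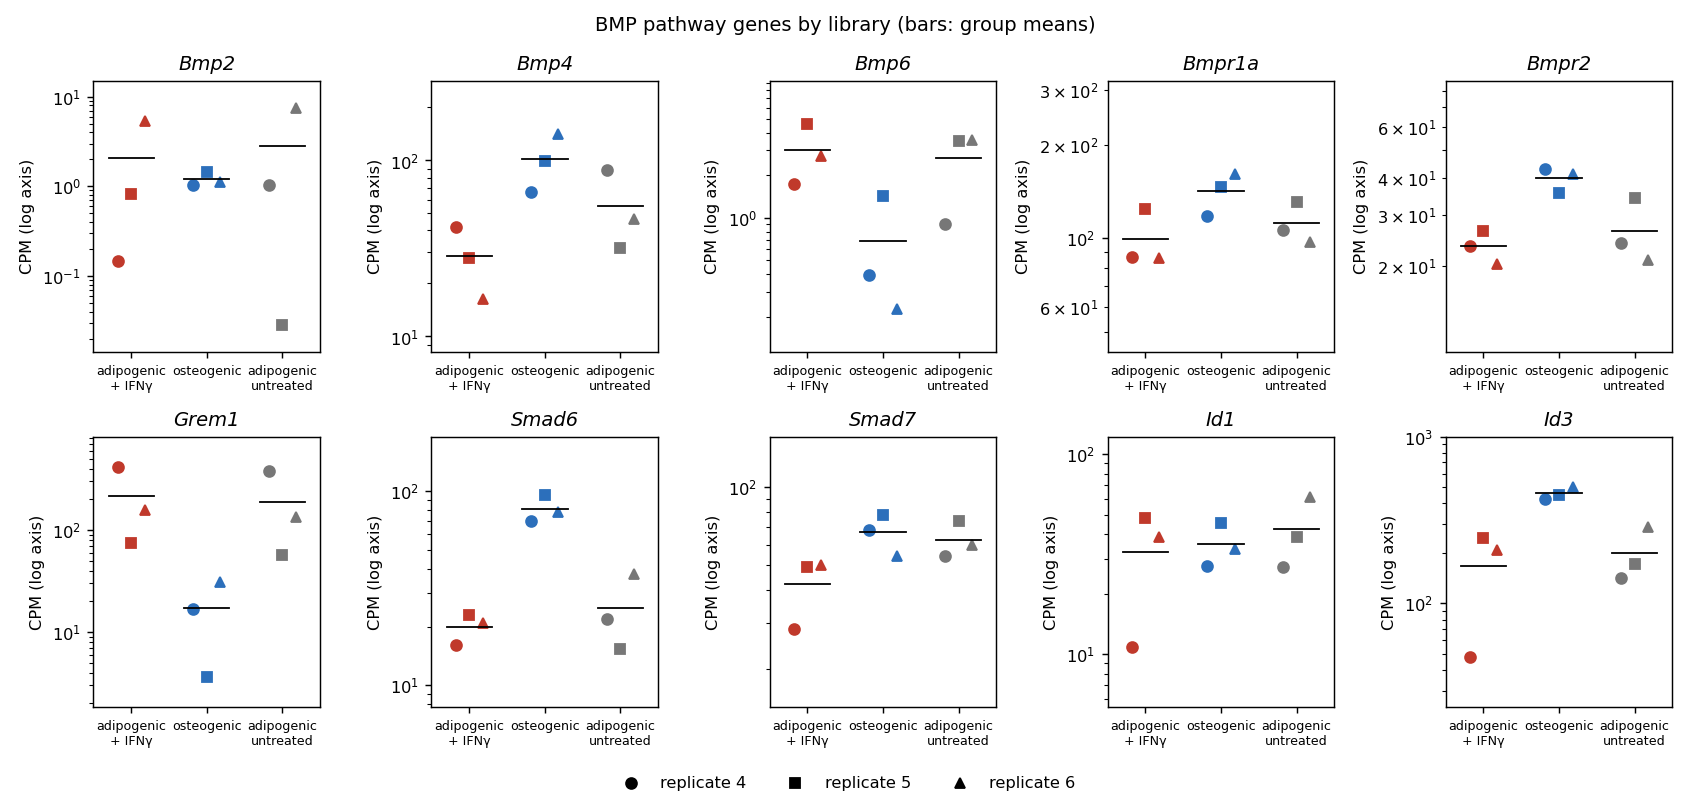
CPM of the 10 genes in each library on log axes, with the treated adipogenic, osteogenic and untreated adipogenic groups from left to right, point shape for the library number and a bar at each group mean. Smad6 stands at 70.5 to 95.8 CPM in osteogenic libraries, above all 6 adipogenic ones, and Grem1 at 3.65 to 31.3 CPM, below all of them.

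Scaled to exonic length, Id3 had the highest mean level of the 10 genes in each group, at 93.6 ± 59.0 CPM per kb in treated adipogenic, 255 ± 21.9 in osteogenic and 112 ± 42.8 in untreated adipogenic libraries (SD, n = 3 each). Grem1 came next in the treated adipogenic libraries, at 51.6 ± 42.5 CPM per kb, and in the untreated ones, at 45.7 ± 40.4, and it overlapped there with Id3 above it and Id1 below it. In osteogenic libraries Grem1 stood eighth, at 4.15 ± 3.33 CPM per kb, and the second place went to Bmp4 at 45.9 ± 16.9, followed by Id1 at 30.6 ± 7.81, Smad6 at 26.0 ± 4.13 and Bmpr1a at 22.3 ± 3.44. Id3 stood clear of Bmp4 in osteogenic libraries, while Bmp4 overlapped with Id1, Id1 with Smad6 and Smad6 with Bmpr1a. Bmp2 and Bmp6 had the lowest levels of the 10 genes in each group, at 0.190 to 0.845 CPM per kb on average, and they did not differ beyond their spread.

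Bmp4 was the leading ligand gene. It had 41.7, 28 and 16.4 CPM in treated adipogenic libraries 4, 5 and 6, against 66.2, 98.6 and 141 CPM in osteogenic libraries and 88.0, 31.6 and 46.4 CPM in untreated adipogenic ones. Each treated library was below each osteogenic one, while the untreated libraries overlapped with both of the other groups. Treated adipogenic libraries averaged 28.7 ± 12.7 CPM and osteogenic ones 102 ± 37.7 CPM (SD, n = 3 each), a log2 difference of −1.83 ± 0.48 (adjusted p = 0.0358). Leaving out single libraries ended that call in 5 of 9 cases: without untreated replicate 6 (0.0502), treated replicate 5 (0.0836) or 6 (0.0994), or osteogenic replicate 5 (0.0843) or 6 (0.111). The differences from untreated cells did not pass, at −0.95 ± 0.47 with IFNγ (0.425) and 0.88 ± 0.47 in osteogenic cells (0.296).

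Bmp2, a strong inducer of bone formation, was set apart by its spread between adipogenic libraries. It had 0.148, 0.818 and 5.31 CPM in treated libraries 4, 5 and 6 and 1.04, 0.0285 and 7.46 CPM in the untreated ones of the same numbers, where the lowest value was 1 read, so at number 5 the untreated level is below what a count of 0 allows. The 3 osteogenic libraries were close together at 1.03, 1.43 and 1.13 CPM. Number 6 was thus the highest in either adipogenic group, and no comparison passed (adjusted p = 0.663 to 0.942). Its direction turned with single libraries: the log2 difference with IFNγ was −0.44 ± 1.49 but 1.96 without untreated replicate 6 and 0.10 without treated replicate 4. That of osteogenic against untreated cells, −1.25, was 1.15 without untreated replicate 6, and that of treated against osteogenic cells, 0.81, was −1.27 without treated replicate 6.

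Bmp6, which is best known for its part in iron balance and also induces bone, had 1.74, 4.63 and 2.73 CPM in treated adipogenic libraries, against 0.393, 1.43 and 0.226 CPM in osteogenic and 0.901, 3.47 and 3.57 CPM in untreated adipogenic ones. The osteogenic libraries were all below the treated ones, and osteogenic replicate 5 was above the lowest untreated library. The log2 difference of treated adipogenic from osteogenic cells was 2.16 ± 0.80 with an adjusted p of 0.103 by edgeR, so it was not called there, though DESeq2, which called 22.8% of all genes here, called it (0.0266). It was 3.29 without osteogenic replicate 5. That of osteogenic from untreated adipogenic cells was −1.97 ± 0.79 (0.185), and −3.08 without osteogenic replicate 5. With IFNγ the fitted difference was 0.20 ± 0.75 (0.95), and −0.20 without untreated replicate 4 or −0.26 without treated replicate 5.

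The receptor genes varied least of the 10, with an SD of log2 levels over the 9 libraries of 0.298 for Bmpr1a and 0.389 for Bmpr2. Bmpr1a, the gene of a type I receptor, had 87.1, 124 and 86.0 CPM in treated adipogenic, 118, 146 and 160 CPM in osteogenic and 106, 131 and 97.2 CPM in untreated adipogenic libraries, and each pair of groups overlapped. No comparison passed for it (adjusted p = 0.116 to 0.781), apart from treated adipogenic against osteogenic cells without treated replicate 5 (0.0453). Bmpr2, the gene of a type II receptor, had 23.4, 26.3 and 20.3 CPM in treated adipogenic, 43.1, 35.7 and 41.4 CPM in osteogenic and 24.0, 34.2 and 20.9 CPM in untreated adipogenic libraries. Its osteogenic libraries were above all 6 adipogenic ones. Bmpr2 was lower in treated adipogenic than in osteogenic progenitors, by a log2 difference of −0.78 ± 0.20 (adjusted p = 0.0336). The call was lost without treated replicate 4 (0.0865) or 6 (0.113) and without osteogenic replicate 4 (0.113), 5 (0.0658) or 6 (0.0938). Against untreated adipogenic cells the osteogenic level of Bmpr2 was higher by 0.60 ± 0.20, which did not pass (0.124) except without untreated replicate 5 (0.0498).

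Grem1 encodes gremlin-1, a secreted protein that binds BMP2 and BMP4 and keeps them from their receptors. It had 412, 74.5 and 156 CPM in treated adipogenic libraries 4, 5 and 6, against 16.7, 3.65 and 31.3 CPM in osteogenic libraries and 378, 56.8 and 134 CPM in untreated adipogenic ones. All 6 adipogenic libraries were above the 3 osteogenic ones, and the order of the numbers, with 4 highest and 5 lowest, was the same with and without IFNγ. Treated adipogenic libraries averaged 214 ± 176 CPM and osteogenic ones 17.2 ± 13.8 CPM (SD, n = 3 each), which is 12.4-fold higher with a log2 difference of 3.63 ± 1.03 (adjusted p = 0.0456). The call was lost with no filter on low counts (0.0632) and without untreated replicate 6 (0.0629), treated replicate 4 (0.111) or 6 (0.0813), or osteogenic replicate 4 (0.136), 5 (0.11) or 6 (0.0712). Its size also moved, to 2.75 without treated replicate 4 and 4.39 without osteogenic replicate 6. Osteogenic against untreated adipogenic cells gave −3.46 ± 1.02, which was not called by edgeR (0.0934) but was by DESeq2 (0.000834), and it was −2.47 without untreated replicate 4 and −4.21 without osteogenic replicate 6.

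**Figure D2:**
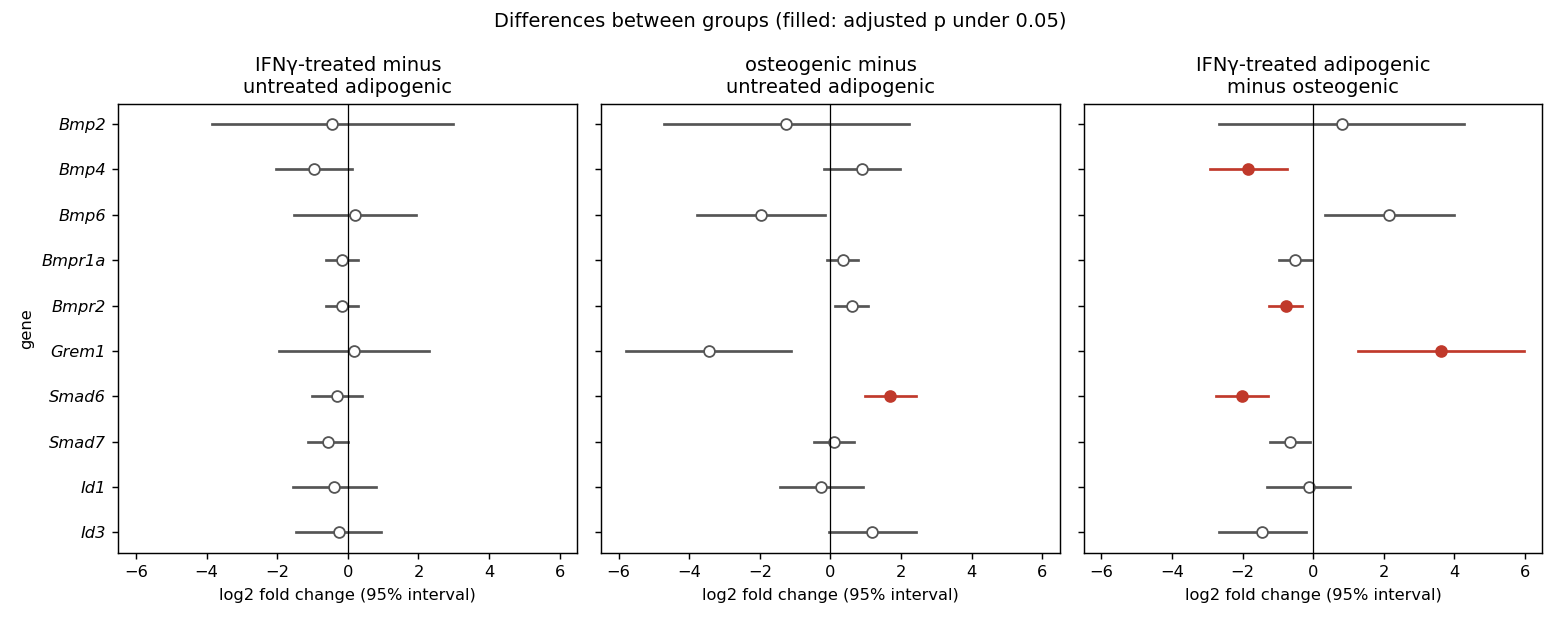
Log2 fold changes of the 10 genes with 95% intervals in the 3 comparisons, filled red where the adjusted p of edgeR's test was under 0.05. No gene is filled for IFNγ, Smad6 alone is filled for osteogenic against untreated adipogenic cells (1.70), and Bmp4, Bmpr2, Grem1 and Smad6 are filled for treated adipogenic against osteogenic cells.

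Smad6 and Smad7 encode the inhibitory SMADs, of which SMAD6 acts mainly on BMP signals and SMAD7 on both BMP and TGF-β signals. Smad6 had 16.1, 23.1 and 21.1 CPM in treated adipogenic libraries, against 70.5, 95.8 and 78.0 CPM in osteogenic and 22.1, 15.4 and 37.6 CPM in untreated adipogenic ones. The osteogenic libraries did not overlap with either adipogenic group, while the 2 adipogenic groups overlapped with each other. Smad6 rose to 81.5 ± 13 CPM in osteogenic progenitors, against 25.0 ± 11.4 CPM in untreated adipogenic ones (SD, n = 3 each), 3.25-fold with a log2 difference of 1.70 ± 0.32 (adjusted p = 0.0257). This call was lost with only the 6 libraries compared (0.0526) and without untreated replicate 4 (0.077) or osteogenic replicate 4 (0.074), 5 (0.0897) or 6 (0.0784). Between treated adipogenic and osteogenic cells it was −2.02 ± 0.32 (0.00529), and this call was kept in all 14 alternatives, with adjusted p up to 0.0248. With IFNγ the difference was −0.32 ± 0.31 (0.73), and 0.11 without untreated replicate 6.

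Smad7 had 28.3, 49.2 and 49.9 CPM in treated adipogenic, 68.3, 78.3 and 54.3 CPM in osteogenic and 54.1, 74.1 and 59.7 CPM in untreated adipogenic libraries. Its treated libraries were below all 3 untreated and all 3 osteogenic ones, and it was the 1 gene of the 10 whose groups did not overlap with IFNγ, where 17.4% of all genes tested did not. The log2 difference with IFNγ was −0.56 ± 0.25 and did not pass (adjusted p = 0.355, and 0.0794 with the libraries paired by number). That of treated adipogenic against osteogenic cells was −0.66 ± 0.25 (0.108). Osteogenic and untreated adipogenic cells differed by 0.10 ± 0.24 (0.853), and by −0.03 without osteogenic replicate 5.

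Id1 and Id3 encode small helix-loop-helix proteins that bind and block other transcription factors of that family, and both are direct targets of BMP SMADs. Id3 had 47.5, 247 and 209 CPM in treated adipogenic libraries 4, 5 and 6, against 424, 446 and 500.4 CPM in osteogenic and 142, 173 and 287 CPM in untreated adipogenic ones. The osteogenic libraries stood above all 6 adipogenic ones and spread by 1.18 times from lowest to highest, against 5.19 times in the treated group and 2.03 times in the untreated one. The log2 difference of osteogenic from untreated adipogenic cells was 1.19 ± 0.53 (adjusted p = 0.226) and that of treated adipogenic from osteogenic cells −1.45 ± 0.54 (0.105). Neither passed edgeR's test, and DESeq2 called the second (0.0321). Across the 10 genes, 4 did not overlap between osteogenic and untreated adipogenic libraries, beside 31% of all genes tested, and 7 did not overlap between treated adipogenic and osteogenic libraries, beside 38.5% of all genes tested.

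Id1 had 10.9, 48.1 and 38.7 CPM in treated adipogenic, 27.6, 45.4 and 33.5 CPM in osteogenic and 27.3, 38.8 and 61.3 CPM in untreated adipogenic libraries, and each pair of groups overlapped. The log2 difference of osteogenic from untreated adipogenic cells was −0.26 ± 0.51 (adjusted p = 0.807), with an interval from −1.44 to 0.92, and it was 0.10 without untreated replicate 6. That of treated adipogenic from osteogenic cells was −0.13 ± 0.51 (0.898), and 0.31 without treated replicate 4 or 0.10 without osteogenic replicate 5. Both Id genes had their lowest level in treated replicate 4, and without that library the differences with IFNγ were 0.05 for Id1 and 0.20 for Id3, in place of −0.38 ± 0.51 and −0.26 ± 0.53. Id3 was also at 0.11 without untreated replicate 6.

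Promoter sequences are shown for Smad6 and Id3, a feedback and a target gene that were higher in each osteogenic library than in any adipogenic one, and for Grem1, which was lower in each. They come from RefSeq on build GRCm38.p6, which differs from the mm9 build of the counts, and run from 250 bases before the annotated start to 30 bases after it. The 30 bases after the start were found in a GENCODE transcript of the same gene for Smad6 and Id3 but not for Grem1, whose start rests on RefSeq alone. Capitals mark the letters GGCGCC, a GC-rich form bound by SMAD1 and SMAD5, GTCTAGAC, the palindromic SMAD box, and CAGAC or its reverse complement GTCTG, the simple SMAD box.
Smad6, chr9:64022030-64022309, minus strand: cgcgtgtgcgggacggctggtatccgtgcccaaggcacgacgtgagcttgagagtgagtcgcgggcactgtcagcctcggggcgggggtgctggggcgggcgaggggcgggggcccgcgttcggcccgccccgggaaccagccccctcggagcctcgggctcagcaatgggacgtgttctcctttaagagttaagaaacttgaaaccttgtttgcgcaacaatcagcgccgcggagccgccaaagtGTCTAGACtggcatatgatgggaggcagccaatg
Id3, chr4:136143572-136143851, plus strand: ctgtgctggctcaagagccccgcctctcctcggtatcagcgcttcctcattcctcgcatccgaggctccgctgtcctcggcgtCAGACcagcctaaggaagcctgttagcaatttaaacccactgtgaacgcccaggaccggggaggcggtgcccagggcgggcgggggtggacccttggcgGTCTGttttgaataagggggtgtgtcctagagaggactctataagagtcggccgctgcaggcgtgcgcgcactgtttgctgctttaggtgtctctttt
Grem1, chr2:113758619-113758898, minus strand: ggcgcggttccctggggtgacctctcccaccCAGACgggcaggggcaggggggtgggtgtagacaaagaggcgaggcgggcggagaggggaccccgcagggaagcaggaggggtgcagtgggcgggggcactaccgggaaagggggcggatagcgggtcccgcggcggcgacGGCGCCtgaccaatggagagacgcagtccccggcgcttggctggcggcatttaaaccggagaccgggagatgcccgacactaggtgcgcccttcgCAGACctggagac

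Promoters were held for 7 of the 10 genes, and motifs were searched on both strands over the 300 bases of each window, up to 50 bases after the start. GTCTAGAC was found in 1 of the 7, Smad6, across the annotated start, and in 0.213% of the 32851 promoters of the table. The Smad6 window held neither of the other SMAD motifs. The motif GGCGCC was found in Bmpr1a, Bmpr2 and Grem1, and in 11.9% of all promoters. CAGAC was found in Bmp6, Grem1 and Id3, the last with 1 copy on each strand, and in 49.6% of all promoters. GTCTAGAC overlaps with neither of the other motifs. Such matches describe letters in these windows and say nothing of binding.

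Same-numbered treated and untreated adipogenic libraries deviated together from their group means over all genes, with r of 0.786 to 0.797, so each number gives its own change with IFNγ. These are stated on the log2 scale with 0.5 CPM added. Smad7 was lower in all 3 pairs, by −0.92, −0.58 and −0.26 at numbers 4, 5 and 6. Bmp4 was also lower in all 3, by −1.07, −0.17 and −1.48. Bmpr1a was lower in all 3, between −0.29 and −0.08, as was Bmpr2, between −0.37 and −0.03, and Grem1 was higher in all 3, by 0.13, 0.39 and 0.22. The pairs parted for Bmp2, Smad6, Id1 and Id3, each of which was higher in the treated library at number 5 and lower at numbers 4 and 6. Id3 differed by −1.57, 0.51 and −0.46, Id1 by −1.29, 0.31 and −0.66, Smad6 by −0.45, 0.57 and −0.82 and Bmp2 by −1.25, 1.32 and −0.46. Bmp6 was higher at numbers 4 and 5 and lower at number 6. In the fit paired by number the lowest adjusted p among the 10 genes was that of Smad7, given above, and the next that of Bmp4 (0.143). It was 0.412 for Bmpr1a, 0.462 for Bmpr2 and 0.845 for Grem1. The share of all genes with the same sign in all 3 pairs was not counted.

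**Figure D3:**
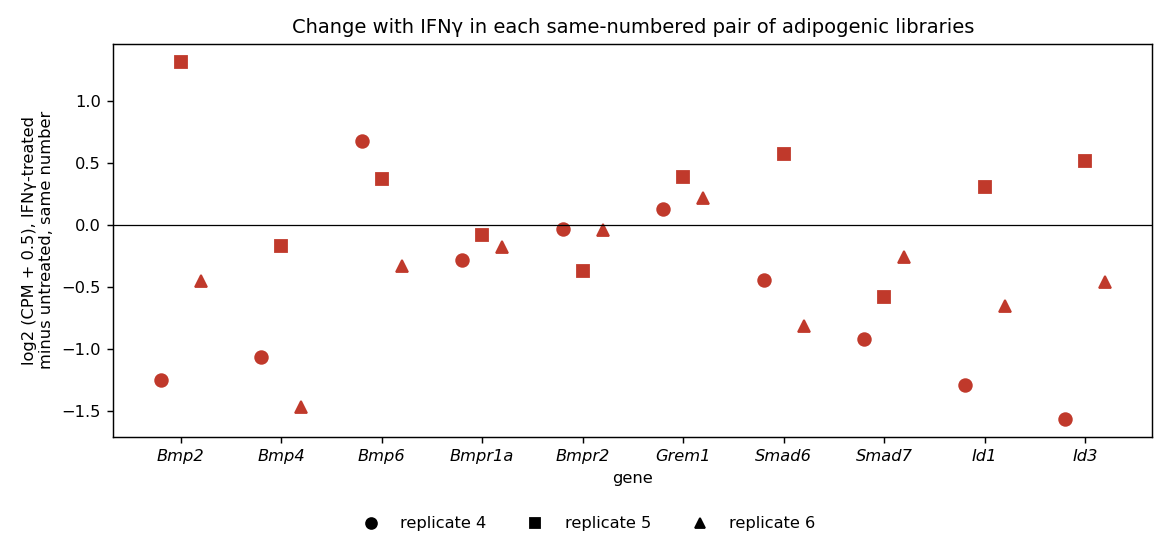
Change with IFNγ in each same-numbered pair of adipogenic libraries, as log2 (CPM + 0.5) of the treated minus the untreated library, with point shape for the number. Smad7 and Bmp4 lie below 0 at all 3 numbers, while Bmp2, Smad6, Id1 and Id3 lie above 0 at number 5 only.

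Ratios within a library do not depend on how libraries are scaled. Per length, Grem1 stood at 5.30, 1.43 and 5.11 times Bmp4 in treated adipogenic libraries, at 0.135, 0.0198 and 0.119 times in osteogenic libraries and at 2.30, 0.962 and 1.55 times in untreated adipogenic ones. The Grem1 transcript thus ran well below that of Bmp4 in each osteogenic library and near or above it in each adipogenic one. Id3 stood at 2.84, 3.32 and 3.49 times Id1 in treated adipogenic, 9.95, 6.36 and 9.69 times in osteogenic and 3.36, 2.88 and 3.03 times in untreated adipogenic libraries. Although Id1 and Id3 each varied several fold between adipogenic libraries, their ratio there kept within 2.84 to 3.49. Smad6 stood at 0.774, 0.640 and 0.576 times Smad7 in treated adipogenic, 1.41, 1.67 and 1.96 times in osteogenic and 0.557, 0.283 and 0.859 times in untreated adipogenic libraries. Bmp4 stood at 35.5, 8.29 and 3.26 times the sum of Bmp2 and Bmp6 in treated adipogenic, 74.7, 55.4 and 167 times in osteogenic and 72.7, 14.6 and 6.74 times in untreated adipogenic libraries. In this ratio the osteogenic libraries overlapped with the untreated ones, through untreated replicate 4, and in the other 3 ratios they did not overlap with either adipogenic group. The 4 ratios were formed with the levels known and were not tested.

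**Figure D4:**
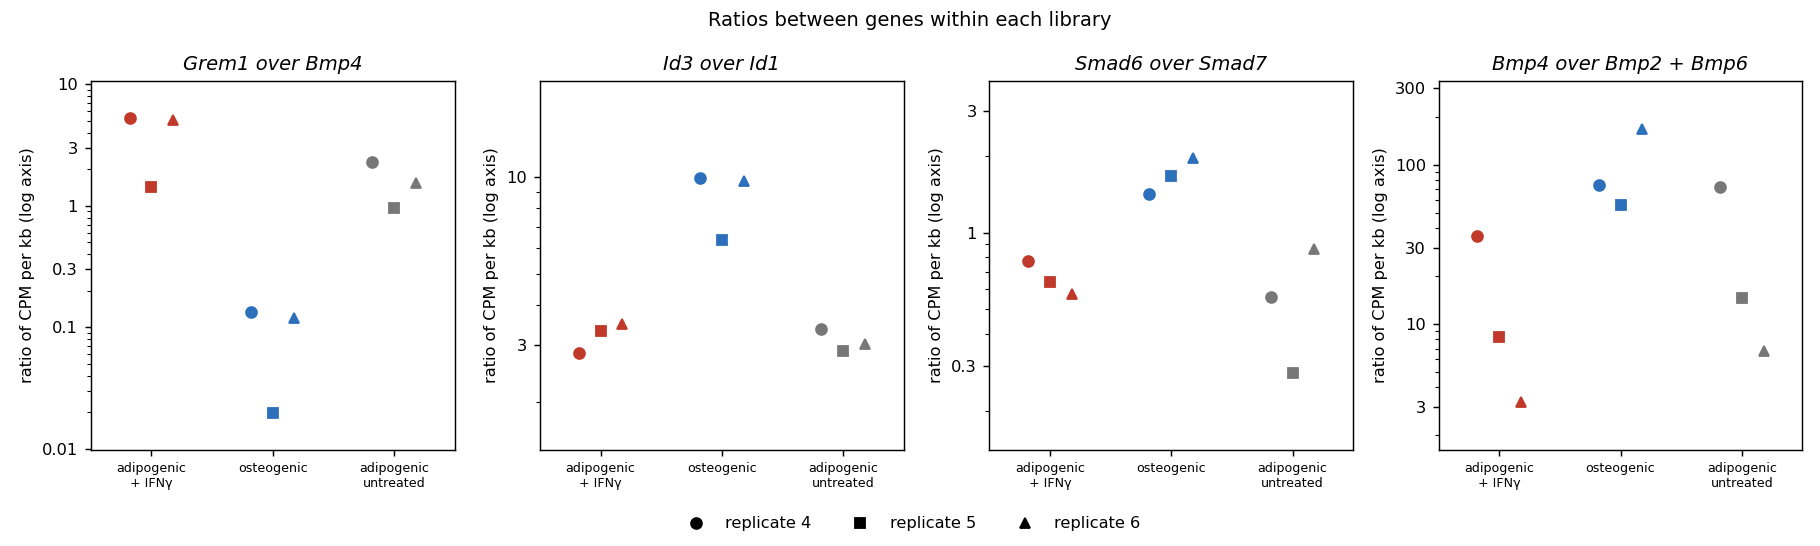
Ratios of CPM per kb within each library on log axes, with the treated adipogenic, osteogenic and untreated adipogenic groups from left to right. Osteogenic libraries lie at 0.0198 to 0.135 for Grem1 over Bmp4, 6.36 to 9.95 for Id3 over Id1 and 1.41 to 1.96 for Smad6 over Smad7, apart from the adipogenic libraries, while for Bmp4 over Bmp2 and Bmp6 they lie at 55.4 to 167 and overlap with the untreated ones.

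Another 49 genes of the pathway were read in the same way, of which 48 were in the table and 39 passed the filter on low counts. With IFNγ 0 of the 39 passed edgeR's test, beside 2.26% of all genes, 3 had an unadjusted p under 0.05, beside 14.3%, and DESeq2 called 1, Dlx5 (−1.46, adjusted p = 0.043), beside 6.75%. In osteogenic against untreated adipogenic cells 2 of the 39 rose, beside 1.98% of all genes tested that did, and 0 fell. Dlx5, a homeobox gene of the bone lineage that BMPs induce, reached 36.2 ± 8.82 CPM in osteogenic libraries, against 3.23 ± 0.51 CPM in untreated adipogenic ones (log2 difference 3.49 ± 0.51, adjusted p = 0.0123), a call lost without untreated replicate 6 (0.0522) or osteogenic replicate 4 (0.056). Skil, whose product represses SMAD target genes, reached 62.8 ± 10.3 CPM in osteogenic libraries, against 29.4 ± 10.9 CPM in untreated adipogenic ones (1.10 ± 0.26, 0.0487). The Skil call was lost in 11 of its 14 alternatives, with adjusted p up to 0.16, among them those without untreated replicate 4 (0.11) or 6 (0.153), without treated replicate 4 (0.0607), 5 (0.0686) or 6 (0.0802) and without osteogenic replicate 4 (0.16), 5 (0.1) or 6 (0.125). DESeq2 called 9 of the 39 in this comparison, 7 of them higher, beside 12.6% of all genes it gave an adjusted p in either direction.

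In treated adipogenic against osteogenic cells 8 of the 39 were lower by edgeR's test, beside 7.52% of all genes, and 0 were higher. DESeq2 called 10 of the 39, beside 22.8% of all genes it gave an adjusted p in either direction. Of those 10, the intracellular inhibitor gene Smurf1 was higher (0.83, adjusted p = 0.0206) and the others were lower. Acvr1, another type I receptor gene, had 47.2 ± 2.86 CPM in treated adipogenic and 98.5 ± 13.5 CPM in osteogenic libraries (log2 difference −1.06 ± 0.16, adjusted p = 0.0039). Smad9, the gene of a BMP-regulated SMAD, had 7.23 ± 1.77 CPM in treated adipogenic and 23.8 ± 4.98 CPM in osteogenic libraries (−1.72 ± 0.32, 0.00908). Skil was at −1.57 ± 0.26 (0.00598), Dlx5 at −4.94 ± 0.55 (0.00105) and the target gene Hey1 at −3.04 ± 0.57 (0.0102), on levels of 0.228 ± 0.171 CPM in treated adipogenic and 1.91 ± 0.66 CPM in osteogenic libraries. These 5 calls were kept in all 14 alternatives, and the Hey1 difference was −3.83 without treated replicate 6. Id2, a relative of Id1 and Id3, had 7.23 ± 4.82 CPM in treated adipogenic and 27.4 ± 7.62 CPM in osteogenic libraries (−1.92 ± 0.51, 0.037), a call lost in 8 of 14 alternatives. It was lost with only the 6 libraries compared (0.0686) and without untreated replicate 4 (0.055), 5 (0.0502) or 6 (0.0597), treated replicate 6 (0.112), or osteogenic replicate 4 (0.0938), 5 (0.122) or 6 (0.0633), and its difference was −2.51 without treated replicate 5.

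The other 2 of the 8 were extracellular inhibitors. Nbl1 had 79.1 ± 4.05 CPM in treated adipogenic and 133 ± 15.7 CPM in osteogenic libraries (−0.75 ± 0.19, adjusted p = 0.029). Its call was lost without treated replicate 4 (0.0811), 5 (0.0559) or 6 (0.0952) or osteogenic replicate 4 (0.103) or 5 (0.0934). Nog, the gene of noggin, had 0.414, 0.395 and 0.341 CPM in treated adipogenic and 0.393, 8.99 and 3.93 CPM in osteogenic libraries (−3.52 ± 0.98, 0.0427), where osteogenic replicate 4 was as low as the treated libraries. The Nog call was lost in 9 of 14 alternatives, with adjusted p up to 0.135, among them those without untreated replicate 5 (0.0565) or 6 (0.0576), treated replicate 4 (0.104), 5 (0.101) or 6 (0.125) and osteogenic replicate 5 (0.135) or 6 (0.0876). Without osteogenic replicate 5 the Nog difference was −2.48. Treated adipogenic and osteogenic cells differ in both lineage and IFNγ, and this comparison alone cannot tell lineage from treatment for these genes either. The log2 difference with IFNγ was −0.49 for Acvr1, −0.52 for Smad9, −0.91 for Hey1, 0.004 for Id2, −0.51 for Nbl1 and −0.93 for Nog. Osteogenic against untreated adipogenic cells gave 0.58, 1.20, 2.13, 1.92, 0.23 and 2.59 in that order. None of these passed edgeR's test. Dlx5 and Skil were at −1.45 and −0.475 with IFNγ, which did not pass either. Untreated adipogenic libraries averaged 66.1 CPM for Acvr1, 10.35 for Smad9, 0.433 for Hey1, 7.215 for Id2, 113 for Nbl1 and 0.73 for Nog. Their levels of Dlx5 and Skil are given above. The median log2 difference over the 39 genes was −0.12, 0.23 and −0.35 in the 3 comparisons in the order above.

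**Figure D5:**
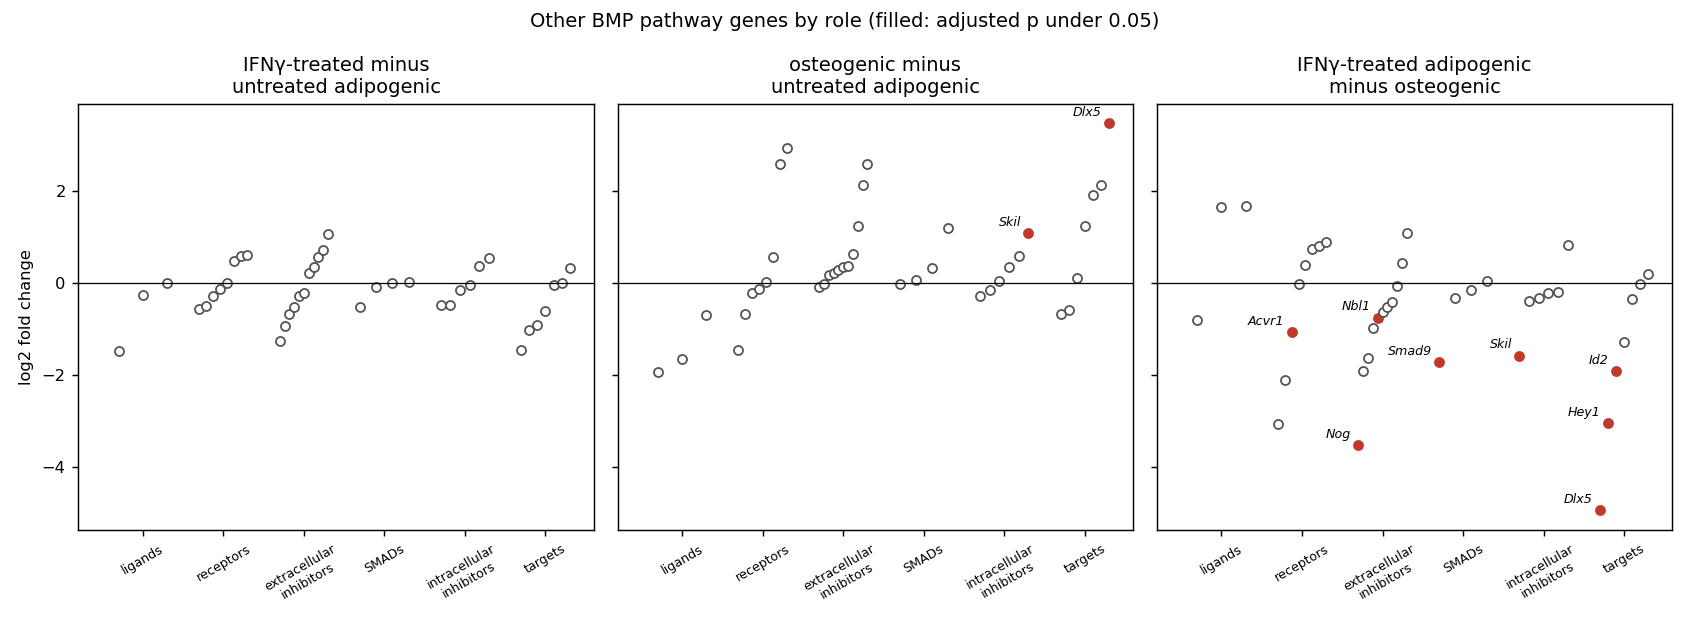
Log2 fold changes of the 39 other pathway genes tested, by role, in the 3 comparisons, with those at an adjusted p under 0.05 filled red and named. None is filled for IFNγ, Dlx5 and Skil are filled above 0 for osteogenic against untreated adipogenic cells, and 8 genes are filled below 0 for treated adipogenic against osteogenic cells.

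Likeness of pattern was measured as the root mean square difference of centred log2 (CPM + 0.5) over the 9 libraries, among tested genes with a mean of at least 10 CPM. The gene nearest to Id3 was Atoh8, at 0.299, beside an SD of Id3 itself of 0.992. Atoh8, a helix-loop-helix gene that BMP signals induce, had 4.40, 42.4 and 36.7 CPM in treated adipogenic, 80.5, 58.8 and 63.3 CPM in osteogenic and 18.0, 19.4 and 48.5 CPM in untreated adipogenic libraries, and thus shared the low value in treated replicate 4. It passed in no comparison (adjusted p = 0.266 to 0.991). The gene nearest to Id1 was Zfp36l1 (0.283), that nearest to Bmp4 was Jag1 (0.334), which encodes a Notch ligand, and that nearest to Smad6 was Chd3 (0.306). The distance was smaller for Smad7 with Rnf215 (0.0803) and for Bmpr2 with Hspb11 (0.12). Among those named it was largest for Grem1 with Gpnmb (0.9), then Bmp2 with St6galnac2 (0.6) and Bmp6 with Pdgfd (0.357). The SD of the gene itself was 0.406 for Smad7, 0.389 for Bmpr2, 2.02 for Grem1, 1.21 for Bmp2 and 0.944 for Bmp6. As the distance tends to grow with that SD, it does not rank these genes by likeness of pattern. Within the 10 genes the closest partners were Bmpr1a and Bmpr2 (0.221), then Smad7 to Bmpr1a (0.332).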

How the data were processed

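The deposited values were raw read counts by Ensembl identifier, not normalized, with 1 column per library beside the exonic length of each gene. Build mm9, bedtools 2.11 and CASAVA 1.8.0 stand in the submitters' processing notes. The sources used here do not give the aligner, counting tool, strand setting or filters, so reads of overlapping or antisense genes cannot be told apart.

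R 4.3.3 and edgeR 4.0.16 were used. filterByExpr, run by group, left 15098 of 24186 genes, TMM gave the library sizes, and a robust quasi-likelihood model held a group term over all 9 libraries. Tests were two-sided, with Benjamini-Hochberg adjusted p under 0.05 called. Dividing a log2 fold change by the root of its F statistic gave the SE, and the t distribution of the fit gave the 95% interval. Exact permutation of 3 libraries against 3 was not used, as it cannot pass 0.05. DESeq2 1.42.0, DESeq2 size factors, no filter, only the 6 libraries compared, the number as a replicate block and each library left out were alternatives. The procedure was also run on simulated counts with 200 changed genes, whose outcome is not given here.

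Numbers 4, 5 and 6 were taken to pair treated and untreated adipogenic libraries, since deviations from the group means correlated in every pair (r of 0.791, 0.786 and 0.797). No libraries of a group agreed within sampling noise. Other pathway genes were named where they passed at a group mean of 1 CPM or more in the higher group, at most 8 a comparison, and 1 gene of most similar pattern was named for 9 of the 10 genes; that of the other is not reported here. The genes, lists and tests were chosen with earlier results of these data known.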

Additional observations from a re-analysis of the deposited data

How the results depend on the processing

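No call among the 10 genes with IFNγ was gained under any alternative, the replicate block of the adipogenic numbers included, which changed no call of a pathway gene there either. Over all genes the count with IFNγ was 341, and 1631 with that block, 178 with only the 6 libraries compared, 1043 with DESeq2 and 194 to 278 with 1 library left out. For the other pathway genes it was 0 in those fits and 1 with DESeq2.

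In osteogenic against untreated adipogenic cells the 10 genes gave 1 call, 0 with only the 6 libraries, 2 with DESeq2, 2 with the replicate block over all 9 libraries and 0 to 2 with 1 library left out. Other pathway genes gave 2, 1 with DESeq2 size factors, 1 with no filter, 9 with DESeq2 and 0 to 2 with 1 library left out. All genes gave 780, 2119 with DESeq2, 1244 with the block and 159 to 771 with 1 library left out. In treated adipogenic against osteogenic cells the 10 genes gave 4, 6 with DESeq2 and 1 to 4 with 1 library left out. Other pathway genes gave 8, 10 with DESeq2 and 5 to 7 with 1 library left out. All genes gave 2525, 3821 with DESeq2 and 1312 to 2474 with 1 library left out. Osteogenic libraries share only a number with the adipogenic ones (r of same-numbered deviations −0.096 to 0.062). With that block Grem1 passed against untreated cells (adjusted p = 0.0224), Bmp6 (0.0341) and Id3 (0.0479) passed between treated adipogenic and osteogenic cells and Nog did not (0.0782).

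Signs turned for uncalled genes. With 1 library left out, log2 differences with IFNγ ran from −2.53 to 1.96 for Bmp2, −0.26 to 0.49 for Bmp6, −0.31 to 0.057 for Bmpr2, −0.71 to 1.16 for Grem1, −0.57 to 0.11 for Smad6, −0.79 to 0.048 for Id1 and −0.66 to 0.20 for Id3. Osteogenic against untreated cells ran from −1.83 to 1.15 for Bmp2, −0.027 to 0.23 for Smad7 and −0.50 to 0.10 for Id1, and treated adipogenic against osteogenic cells from −1.27 to 1.36 for Bmp2 and −0.53 to 0.31 for Id1. With the block over all 9 libraries Bmp2 was at 0.14 and −0.48 in those comparisons. The cause was not tested, beyond the smaller number of libraries in such fits. Counts of 1 to 40 reads limit Bmp2 and Bmp6 in several libraries.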

Other observations

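Several BMP pathway genes stood apart in osteogenic replicate 5. All genes of these observations were chosen after their values were seen. Eng, the gene of the co-receptor endoglin, had 60.2 CPM there, against 2.78 and 2.77 CPM in osteogenic replicates 4 and 6 and 2.39 to 3.17 CPM in the 6 adipogenic libraries. The ligand gene Bmp5 had 6.02 CPM there on 160 reads and at most 1 read in each other library. Noggin, given above, was also highest in that library. Follistatin (Fst), which binds activins and some BMPs, had 47.9, 250 and 175 CPM in treated adipogenic libraries 4, 5 and 6. The untreated ones had 140, 73.8 and 70.5 CPM, so that Fst was lower with IFNγ at number 4 and higher at numbers 5 and 6. The log2 difference with IFNγ was 0.73 ± 0.54 (edgeR adjusted p = 0.626). Osteogenic libraries had 169, 248 and 261 CPM of Fst, above each untreated one and overlapping with the treated ones. Their log2 difference from untreated cells was 1.26 ± 0.54 (edgeR adjusted p = 0.212).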
